A study of Mus musculus with 2 samples.

Results

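Of the 26584 m6A peaks deposited for the pregnant mouse uterus, 590 had their summit outside every annotated gene but no more than 5 kb from the end of a protein-coding gene. These are the peaks just outside protein-coding gene spans. They were chosen by position alone: a peak belonged when it lay on an autosome or the X chromosome, when its summit fell in no RefSeq gene span of any kind on mm10 (GRCm38), and when the nearer end of a protein-coding span was within 5 kb. They made up 2.22% (95% Wilson interval 2.05 to 2.41) of the 26517 peaks on autosomes and X, and 27.3% of the 2161 peaks outside all spans. They lay beside 476 genes, which is 2.2% of the 21631 protein-coding genes.

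The tissue was uterus of wild-type mice, mated at 6 to 8 weeks of age and killed on gestational day 4, counted from the vaginal plug as day 1. The labels give the cell type as mixed and the RNA as polyadenylated. The series has 2 samples, 1 immunoprecipitated with an m6A antibody (the IP) and 1 input without antibody, both of that day and genotype. A single peak list exists, deposited with the IP sample, so there is no replicate, no second condition and no test between conditions. The name of each of the 26584 peaks carries 1 run name that begins with D8 and pairs a "NegIP" with a "Posinput", where the labels say day 4. The labels do not explain these letters. The day, and whether the IP and the input behind the list come from the same group, therefore cannot be told from the file. This bears on every fold enrichment and background below, and "day 4" is the label's statement.

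N6-methyladenosine (m6A) is a methyl mark that a nuclear writer complex built around METTL3 and METTL14 places on adenosines of RNA, and that reader proteins of the YTH family bind to steer splicing, decay and translation. In mRNA it is known to gather around the stop codon and in the 3′ untranslated region, and a related mark sits at the cap beside the transcription start. RNA can reach past an annotated gene: transcripts can end at a distal poly(A) site, start upstream of the listed start, run in the other direction from a shared promoter, or belong to a gene that the annotation does not hold. The peak list gives no strand, and nothing in it tells these sources apart.

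Some of the strongest peaks lay in the bases just before an annotated start, where the sequence under the summit can be read from RefSeq promoters of GRCm38.p6. The sequences below show what lay up to 60 bases to either side of the summit. They end at the gene's start where that came first. The Pgm5 sequence is instead cut on its upstream side, at the edge of the promoter window 250 bases before the start. The first 6 belong to the highest fold enrichments in such windows, and Hoxd9 and Igf1r were added, after their values were seen, because they are developmental and growth factor genes on the uterine lists. Each is given 5′ to 3′ on the gene's own strand, and capitals mark the letters AGTCC, which read GGACT on the other strand. GGACT is the best known sequence setting of m6A in mRNA.
Poc1b, chr10:99106869-99106989, plus strand: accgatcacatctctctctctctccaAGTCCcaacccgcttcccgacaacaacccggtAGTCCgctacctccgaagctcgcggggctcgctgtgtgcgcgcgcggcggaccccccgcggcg
Rnpc3, chr3:113630166-113630286, minus strand: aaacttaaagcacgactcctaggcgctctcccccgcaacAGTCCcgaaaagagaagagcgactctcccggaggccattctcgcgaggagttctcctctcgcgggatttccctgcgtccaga
Emx2, chr19:59458586-59458689, plus strand: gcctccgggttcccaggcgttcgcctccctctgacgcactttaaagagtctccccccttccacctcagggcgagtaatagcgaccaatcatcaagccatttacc
Pgm5, chr19:24861991-24862092, minus strand: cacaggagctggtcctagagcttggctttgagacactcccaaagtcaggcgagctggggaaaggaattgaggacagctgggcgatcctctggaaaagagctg
Sesn1, chr10:41810419-41810539, plus strand: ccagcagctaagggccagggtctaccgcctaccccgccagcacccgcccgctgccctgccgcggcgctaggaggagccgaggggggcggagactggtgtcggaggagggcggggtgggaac
Gm52435, chrX:79689054-79689157, plus strand: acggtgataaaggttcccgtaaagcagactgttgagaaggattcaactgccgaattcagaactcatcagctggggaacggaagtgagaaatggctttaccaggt
Hoxd9, chr2:74697585-74697705, plus strand: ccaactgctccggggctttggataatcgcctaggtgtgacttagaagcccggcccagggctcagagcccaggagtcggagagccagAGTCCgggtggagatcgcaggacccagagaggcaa
Igf1r, chr7:67952181-67952256, plus strand: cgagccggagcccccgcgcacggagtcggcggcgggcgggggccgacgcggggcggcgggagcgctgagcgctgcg

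Of these 8 sequences, 3 held the motif within the window shown, and all 4 matches were on the strand opposite to the gene, with none as GGACT on the gene's strand. Poc1b had 2 matches, the nearer starting 2 bases before the summit. The single match of Rnpc3 began 21 bases before its summit, and that of Hoxd9 began 26 bases after it. Emx2, Pgm5, Sesn1, Gm52435 and Igf1r had none in the letters shown. The Emx2 peak, beside a homeobox gene needed for the urogenital tract, had 47 IP fragments at the summit and a fold enrichment over background of 16.2 at 44 bp before the start. Pgm5, a protein of muscle cell junctions, had 22 fragments and a fold of 13.0 at 209 bp, and Sesn1, a stress-induced sestrin, had 21 fragments and 12.8 at 95 bp. Over the whole promoter windows of 300 bases, counting GGACT on either strand, 25 of the 50 windows that held a summit of these peaks had the motif (50%, Wilson interval 36.6 to 63.4). Among all 21045 protein-coding windows the share was 46.6%, inside that interval. The 50 windows, which came from 46 peaks since some starts share a promoter, had a mean GC content of 62.5% against 56.4% in all windows. A match is a run of letters in a window and not a methylated site.

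These peaks were shallower than peaks inside genes, and weaker. Fold enrichment is the peak caller's own value, the IP pileup (fragments covering the summit) plus 1 over the background plus 1. Its median was 6.34 over the 590 peaks, with quartiles of 5.11 and 8.57 and a range from 3.27 to 27.0. For the 21027 peaks inside exactly 1 protein-coding span the median was 7.31, and for the 1571 peaks outside all spans and more than 5 kb away it was 6.26. The whole numbers of IP fragments recovered from the deposited values had a median of 10 at these summits, against 20 inside genes and 8 far from them. The background at the summit followed the same order, with medians of 0.650, 1.65 and 0.208 fragments. Its lowest value was 0.175 in each class. The background stayed at 0.175 up to percentile 9 of the peaks near genes, 2 of those inside and 33 of the far ones. The far median thus lay close to that lowest value. The peaks near genes thus stood between the other two classes in depth, while their fold enrichment was close to that of the far ones.

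A fold enrichment of at least 10 was reached by 96 of the 590 peaks, or 16.3% (Wilson interval 13.5 to 19.5). Over all peaks on autosomes and X it was 25.7%, above that interval, and far from genes it was 15.9%. Fewer than 10 IP fragments carried 45.8% of the peaks just outside genes, against 15.9% inside genes and 62.8% far from them. A typical peak was 298 bp wide, close to the 335 bp inside genes and wider than the 232 bp far away. Its nearest neighbouring peak was 2009 bp off at the median (2889 bp inside genes, 29560 bp far away), and 39.3% had another peak within 1 kb, against 32.9% and 22.7%. In bulk tissue, a peak with few fragments can reflect, among other things, few cells with that RNA or little RNA per cell, and these cannot be told apart.

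**Figure D1:**
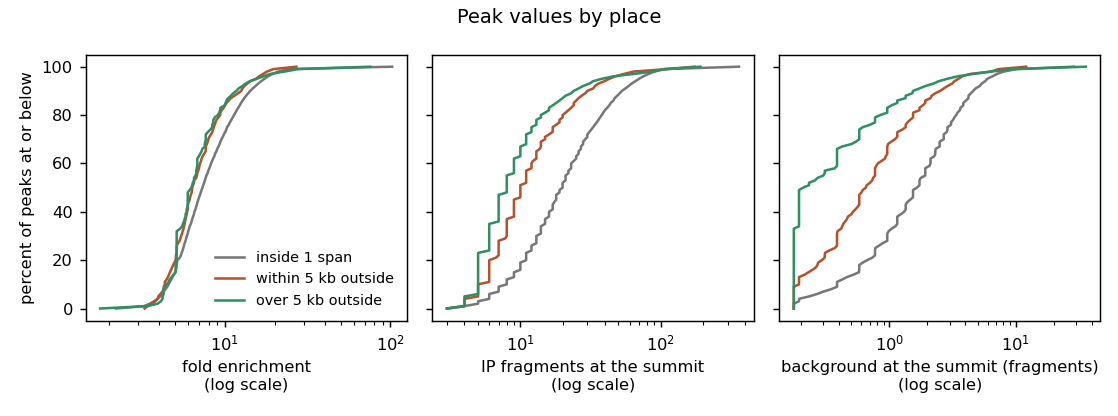
The 3 panels plot, for each class of peaks, the percent of peaks at or below a given fold enrichment, IP pileup in fragments and background in fragments, all on log axes. The curves of pileup and background for the peaks within 5 kb lie between those inside 1 span and those over 5 kb outside, with pileup medians of 10, 20 and 8.

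The direction of a gene could be read from the promoter table for 17274 of the 21631 protein-coding genes (79.9%). Among the 471 peaks whose neighbour had a direction, 227 lay beyond the 3′ end (48.2%, Wilson interval 43.7 to 52.7) and 244 before the 5′ end (51.8%). The other 119 lay beside genes without one, and for them only the low or high end of the span by coordinate can be named. Without the chromosome 2 stretch described further on, the 3′ share was 44.9% of 443 (40.4 to 49.6). With the stretch kept, the share was 59.6% among peaks of at least 10 fragments and 32.8% within 1 kb. Of the 28 peaks of the stretch, all on the 3′ side, only 2 had fewer than 10 fragments. Which end held more thus depended on the peaks counted. Peaks before the 5′ end crowded close to it: their median distance was 694.5 bp, and 101 of them (41.4%) were within 500 bp. Peaks beyond the 3′ end were spread out, with a median distance of 2055 bp, only 35 (15.4%) within 500 bp, and 118 (52.0%) between 2 and 5 kb.

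Set against the amount of sequence outside all spans in each band, the 500 bp before the 5′ end held 15.8 peaks per Mb (exact Poisson interval 12.9 to 19.2). The next 500 bp held 6.04, and between 1 and 4 kb the density was 2.49 (1.97 to 3.11; 78 peaks). Beyond the 3′ end the density hardly depended on distance: it was 5.07 (3.53 to 7.05) in the first 500 bp, 5.06 in the next, and 4.21 (3.51 to 5.0; 129 peaks) between 1 and 4 kb. From 1 to 4 kb the 3′ side was the denser, and within 500 bp the 5′ side was. Without the chromosome 2 stretch, the densities from 1 to 4 kb were 3.73 (3.07 to 4.48; 114 peaks) on the 3′ side and 2.5 (1.97 to 3.12) on the 5′ side, whose intervals overlap slightly. Every band on either side was above the 1.27 peaks per Mb (1.21 to 1.33) found more than 5 kb from protein-coding spans, although the interval of the 5′ band from 2 to 3 kb (1.17 to 2.97) reached down to it. Inside the genes the densities were far higher, at 137 per Mb in the first 500 bp and 119 in the last. Averaged over 500 bp on each side, the step down across the annotated 3′ end was thus from 119 to 5.07 peaks per Mb. Across the 5′ end it was from 137 to 15.8. In the nearest 250 bp the densities inside and outside were 79.4 and 5.64 at the 3′ end, and 162 and 15.8 at the 5′ end.

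**Figure D2:**
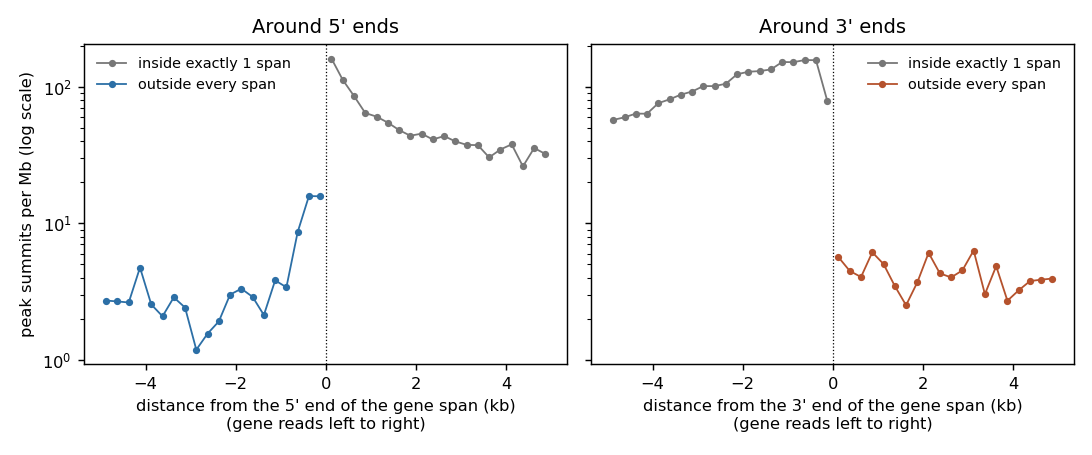
Peak summits per Mb (log axis) in steps of 250 bp are plotted against distance in kb from the 5′ end (left) and 3′ end (right) of protein-coding spans, inside exactly 1 span in grey and outside every span in colour. Outside the 5′ end the curve falls over the first 1 kb, while beyond the 3′ end it stays near 4 peaks per Mb out to 5 kb.

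The crowd at the 5′ end was shallow at the median, but so was the 5′ side as a whole. All 244 peaks before 5′ ends had a median of 9 fragments. The 101 peaks within 500 bp of a start had a median of 8 fragments over a background of 0.438 and a median fold of 6.28, and 14 of them reached a fold of 10. All 227 peaks beyond 3′ ends had a median of 12 fragments over a background of 0.884 and a median fold of 6.50. With peaks of at least 10 fragments alone, 36 peaks remained within 500 bp before a 5′ end and 24 beyond a 3′ end, and from 1 to 4 kb the counts were 36 and 83. When the whole peak, and not its summit alone, had to lie outside all spans, the counts within 500 bp were 64 and 14. The order of the ends was the same in both bands under either condition.

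Highest of all was a peak beyond Hhipl1, a gene related to the Hedgehog-interacting protein. It held 52 fragments over a background of 0.961, a fold of 27.0 (exact Poisson interval 20.3 to 35.3), and lay at chr12:108327587-108328971 on mm10 with its summit 220 bp past the 3′ end; the best of 3 peaks inside the gene had a fold of 25.0. Tbc1d22a, a Rab GTPase-activating protein of the TBC family, had 61 fragments and a fold of 21.2 (16.3 to 27.2) at chr15:86213840-86214356, 249 bp before its 5′ end, where the single peak inside the gene reached 4.73. Poc1b, a centriole protein, had 39 fragments and a fold of 21.1 (15.2 to 28.6) at chr10:99106667-99107103, 153 bp before the start, against 11.6 inside. Its promoter sequence is the first of those shown above. Of these 3 peaks, those of Hhipl1 and Poc1b ran over a span end with their flanks, and that of Tbc1d22a lay wholly outside.

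Maf, a basic leucine zipper transcription factor, had one of the deepest of the strong peaks, at chr8:115705575-115707880 with a width of 2306 bp. The peak had 99 fragments and a fold of 20.6 (16.8 to 25.1), against 6.88 for the summit inside. Its own summit lay 334 bp beyond the high-coordinate end of the span, but much of its interval lay within the span. Zbtb16, the transcription factor PLZF, which progesterone and glucocorticoids induce in uterine stroma, had 40 fragments and a fold of 17.6 (12.7 to 23.8) at chr9:48836053-48836405, with its summit only 13 bp outside its high-coordinate end, and its best peak inside was similar at 15.8. The interval of this Zbtb16 peak also ran over the span end. Rnpc3, a protein of the minor spliceosome, had 28 fragments and a fold of 17.7 (12 to 25.4) at 77 bp before its start and no summit inside, although part of this peak's interval lay within the gene; its sequence, with 1 motif, stands above. Slc25a29, a mitochondrial carrier of basic amino acids, had a fold of 18.9 at 636 bp before its 5′ end. A gene of another biotype was nearer to that summit, at 461 bp, and the peak's interval overlapped its span. Med26, a Mediator subunit, had 17.3 at 806 bp before its own, below the 26.6 inside.

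Farther from any protein-coding end stood Cd27, a receptor of lymphocytes, with 38 fragments and a fold of 18.1 (13.0 to 24.7). Its summit was 3457 bp before the 5′ end, with no peak inside the gene, and a gene of another biotype was nearer, at 659 bp. Gm17019 had 27 fragments and a fold of 21.4 at 4075 bp before its 5′ end, and Gm17660 had 19 fragments and a fold of 17.0 at 1832 bp beyond its 3′ end. At such distances the gene named is only the nearest annotated protein-coding one. The 20 strongest peaks ranged in fold from 16.7 to 27.0 and came from 17 genes. The intervals of 10 of the 20 overlapped a gene span although the summit did not. The 20 were divided into 8 before 5′ ends, 9 beyond 3′ ends and 3 of unknown direction. Of the 20, 7 lay in a single stretch of chromosome 2.

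**Figure D3:**
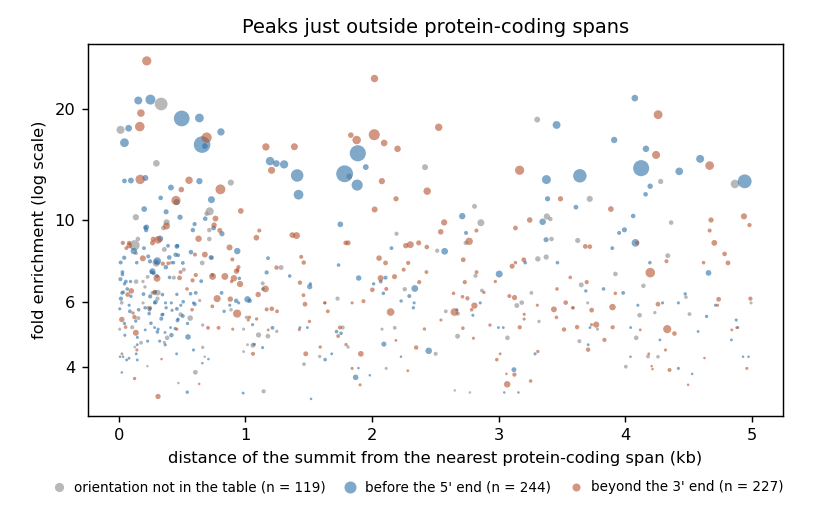
Each point is 1 of the 590 peaks, with the distance of its summit from the nearest protein-coding span in kb against its fold enrichment on a log axis; point area grows with the IP fragments at the summit and colour gives the side. Blue points (before the 5′ end) gather within 500 bp at folds under 10, and the 10 deepest peaks lie between 334 and 4943 bp.

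That stretch, at the distal end of chromosome 2, is a cluster of KRAB-type zinc finger genes, a family of DNA-binding proteins many of which silence transposable elements. It held 28 of the 590 peaks (4.75%), all beyond 3′ ends, beside 11 of its 37 protein-coding genes. The stretch was singled out after these values were seen. A fold of 10 was reached by 14 of the 28, against 14.6% of the other 562 peaks just outside genes and 25.7% of all peaks on autosomes and X. The median fold of the 28 was 9.64, and their median depth was 24.5 fragments. Of the 24 whose gene also had a peak inside, 20 had a higher fold than any inside peak.

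Several of these genes showed peaks in the same order after the 3′ end. Zfp966 had them at 174, 880 and 2019 bp with folds of 19.5, 6.10 and 24.2. Zfp967 had them at 168, 874 and 2095 bp with folds of 12.9, 8.42 and 16.2, followed by another at 2432 bp. In Zfp971 they stood at 165, 837 and 2017 bp with folds of 17.9, 7.03 and 17.0. In these 3 genes a strong peak, a weaker one and a strong one came at almost equal distances. Zfp968 had the same order starting farther out, at 693, 1403 and 2526 bp with folds of 16.7, 9.07 and 17.8. The gap from the first peak to the second was 706, 706, 672 and 710 bp in Zfp966, Zfp967, Zfp971 and Zfp968. The next gap was 1139, 1221, 1180 and 1123 bp.

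Over these 4 genes the first peaks had 35 to 64 fragments, the second ones 18 to 29 and the last of each 3 had 27 to 75, and the folds of the second peaks (6.10 to 9.07) were all below those of the first and last of the 3 (12.9 to 24.2). Zfp973 had 4 peaks from 2020 to 4243 bp with folds from 9.29 to 15.0 and none inside its span. Gm14440 had 3, at 554, 1791 and 3198 bp with folds of 12.8, 8.67 and 7.80. Gm14305 had a fold of 16.5 at 1878 bp, and Gm14288 had 19.3 at 4259 bp in a peak 3627 bp wide. The peaks of Gm14326, Gm4631 and Zfp931 had folds from 4.92 to 8.67. The genes of this cluster are closely similar copies of one another, so fragments may be shared among them or placed on the wrong copy, and the recurrence of distances is not 4 independent observations.

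**Figure D4:**
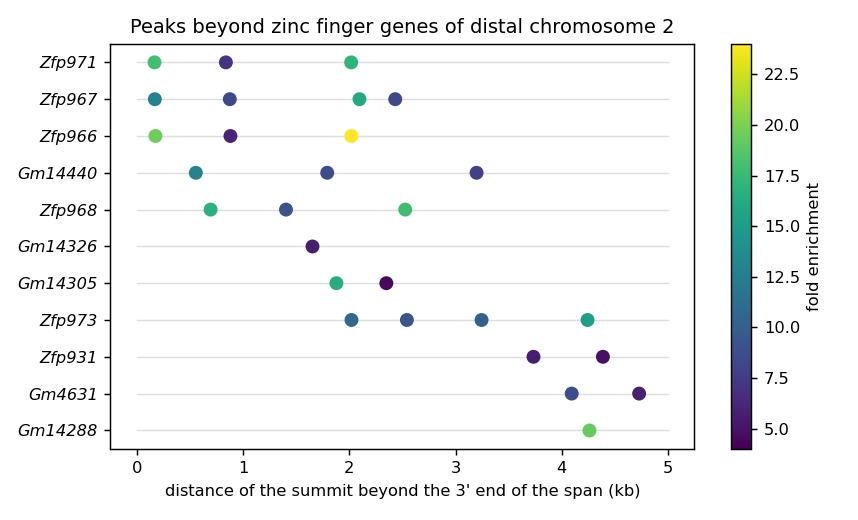
The 28 peaks beyond zinc finger and neighbouring genes of distal chromosome 2 are placed by gene (rows) and distance of the summit past the 3′ end in kb, coloured by fold enrichment. Zfp971, Zfp967 and Zfp966 each have a peak near 0.2 kb, a weaker one near 0.9 kb and a strong one near 2 kb.

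Outside this stretch the numbered zinc finger genes had fewer and weaker such peaks per gene. Of 358 such genes, 20 (5.59%) had a peak just outside, against 2.2% of all protein-coding genes. Their 26 peaks had a median fold of 5.48, with 5 beyond 3′ ends, 9 before 5′ ends and 12 beside genes of unknown direction. Zfp236 had 4 peaks beyond its high-coordinate end, at 563, 1462, 2859 and 4866 bp, with folds of 5.42, 4.06, 9.83 and 12.5. Its strongest was thus also its farthest.

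The protein-coding neighbour of the most peaks was Rif1, which directs replication timing and DNA repair. It had 5 beyond its high-coordinate end, from 1143 to 4113 bp, with folds from 3.43 to 10.2 and 11 to 24 fragments, all below its best inside peak at 15.6. All but the one at 1143 bp lay nearer to a gene of another biotype, at 2294, 1589, 1317 and 856 bp, so their link to Rif1 is loose. Of the 476 genes, 390 had 1 peak, 66 had 2 and 20 had 3 or more. Cox16, a cytochrome oxidase assembly factor, Cyp2r1, a vitamin D 25-hydroxylase, and Kbtbd3, a kelch-repeat protein, each had 3, all of them beyond the 3′ end.

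The deepest peaks were in part those of high fold, since Maf and Gm52236 were also among the 20 highest folds. Of the 10 with the most fragments, 76 to 174 at the summit, 9 lay before 5′ ends and none beyond a known 3′ end (the direction of the tenth, Maf, is not in the table). Their widths ran from 361 to 5742 bp and their backgrounds from 3.84 to 12.1 fragments, so that fold enrichment was only 12.4 to 20.6. Of these 10, 6 lay beside genes known to RefSeq only as computed models: Gm52666 with 174 fragments and a fold of 13.3, Gm52512 with 169 and 16.0, Gm40378 with 160 and 15.2, Gm52236 with 152 and 18.9, Gm40595 with 96 and 13.2, and Gm41844 with 76 and 12.4. The others were H2bl1, a testis-type histone H2B gene, with 159 fragments at 4125 bp, Lyrm2, a mitochondrial LYR-motif protein, with 117 at 4943 bp, and 2200002J24Rik with 111 at 3641 bp before the 5′ end.

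Gm52512 shows how such a locus looked: of its 4 peaks, 3 had their summit before the 5′ end and 1 beyond the 3′ end, and no summit fell inside. The deepest, 5742 bp wide with its summit 657 bp before the start, covered the whole span. Gm40595 had 3 peaks before its 5′ end and 1 beyond its 3′ end, and Gm41844 had 2 on each side. Genes with model transcripts alone had 47 of the 590 peaks (7.97%, Wilson interval 6.04 to 10.4). Counted as genes, they were 27 of the 476 neighbours and 678 of the 21631 protein-coding genes (3.13%). Since 1 locus can hold several peaks, as above, the interval for peaks may be too narrow. The peaks of these genes had a median of 16 fragments. Of their 27 genes with such a peak, 13 (48.1%) also had one inside, against 11.5% of all model-only genes.

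Most genes with a peak just outside also had one inside, where a peak counts as inside by its summit. A summit inside the span was present in 334 of the 476 neighbours (70.2%, Wilson interval 65.9 to 74.1), where 45.4% of all protein-coding genes had one. For the 2 sides the shares were 70.2% beyond 3′ ends and 67.0% before 5′ ends, with overlapping intervals. Among the 413 peaks whose neighbour had an inside peak, 121 (29.3%) had a higher fold than any of those. The share was 33.5% on the 3′ side (26.7 to 41.1) and 27.2% on the 5′ side (20.9 to 34.6), with overlapping intervals. On the 3′ side these were 54 of 161 peaks, and the chromosome 2 stretch supplied 20 of the 54, from 24 of the 161. The higher share on the 3′ side thus rested on that stretch. The 177 peaks whose neighbour had none were of like strength, with a median fold of 6.04 against 6.42.

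Among the strongest peaks relative to the gene's own were those of Zfp966 (4.96 times its best inside peak), Tbc1d22a (4.49 times), Gm17019 (4.19 times) and Hsd11b2 (4.18 times). Hsd11b2 encodes the dehydrogenase that inactivates glucocorticoids. Its outside peak had 23 fragments and a fold of 11.4 (7.41 to 16.9) at 3719 bp beyond the low-coordinate end, against 2.73 inside. Of the 10 peaks with the highest such ratios, 5 lay in the chromosome 2 stretch.

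**Figure D5:**
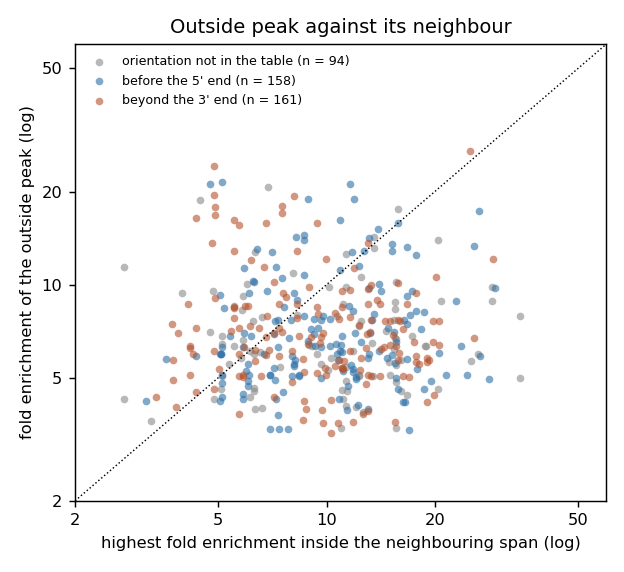
Each of the 413 peaks whose neighbouring gene has a peak inside is plotted by the highest fold enrichment inside the span (horizontal) and its own fold (vertical), both on log axes, with equality as the dotted line. Most points lie below the line, and the 121 above it include the red points (3′ side) of Zfp966, Zfp967 and Zfp968 near an inside fold of 5.

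The lists of the pathways and cell types used here were drawn up with earlier results of these data known. Of 359 genes on the 15 lists of uterine pathways, cell markers and regulators, 15 had a peak just outside (4.18%, against 2.2% of all protein-coding genes), while 279 had one inside. No list had more than 3 such genes, and those of smooth muscle (16 genes), immune cells (18), ovary, oviduct and embryo (17) and 3′ end processing (25) had none. Of the 69 markers of stroma, smooth muscle, endothelium and epithelium, 63 carried a peak inside. Of the 35 other markers 11 did, namely 7 of 18 of immune cells and 4 of 17 of ovary, oviduct and embryo. The share over all protein-coding genes was 45.4%. Because earlier results were known when the lists were made, these counts cannot serve as an independent check of the labelled tissue.

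Among the hormone and implantation genes, Zbtb16 was by far the strongest. Igf1r, the IGF1 receptor, had 11 fragments and a fold of 6.12 (3.31 to 10.5) 16 bp before its start, and Jak2, the kinase below LIF receptors, had 12 fragments and 6.04 at 926 bp. Stat3, the transcription factor of that pathway, had a peak of 4 fragments at 4973 bp before its 5′ end, with a fold of 4.26 (1.78 to 9.57), near the limits of both depth and distance, and no peak inside. In the decidual and BMP list, Bmpr2, a type II BMP receptor, had 23 fragments and a fold of 7.26 at 265 bp, and Hoxd9, a Hox factor, had 25 fragments and 8.24 at 118 bp before the 5′ end. A second protein-coding gene lies within 5 kb of the Hoxd9 peak. All these 5′ peaks were at or under the best peak inside their gene, where there was one.

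Flt1, the VEGF receptor of endothelium, was the marker gene with peaks on the 3′ side: 14 fragments and a fold of 9.51 at 3132 bp, and 13 fragments and 8.47 at 3720 bp, against 11.0 inside. Col5a1, a fibrillar collagen of stroma, had 6.27 at 344 bp before its start. Spint2, an epithelial serine protease inhibitor, had 5.74 at 458 bp before its own, above the 3.58 of its single inside peak. Of 21 m6A writers, erasers and readers, Alkbh5, a demethylase of m6A, alone had such a peak, with 6 fragments and a fold of 4.51 at 1135 bp before the 5′ end.

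Among the chromatin regulators, Chd2, a remodeller, had a fold of 7.93 at 3375 bp, and Kdm5b, a histone H3K4 demethylase, had 7.65 at 2106 bp beyond its 3′ end. Fzd8, a Wnt receptor, had 9.85 at 377 bp, and Fosl2, an AP-1 subunit, had 35 fragments and 7.74 at 303 bp before its 5′ end.

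In the larger gene families the share of genes with such a peak can be set beside the 2.2% of all protein-coding genes, with no test of a difference. RING and tripartite motif ubiquitin ligase genes had one in 9 of 132 (6.82%), among them Trim56, an antiviral ligase, with 60 fragments and a fold of 12.1 at 802 bp beyond its 3′ end, against 29.1 inside. Solute carriers had one in 9 of 364 (2.47%) and cytosolic ribosomal protein genes in 2 of 84, Rpl37 and Rpl12, both beyond the 3′ end. Replication-dependent histone genes had one in 3 of 71, H4c12, H4c17 and H4c9, all 3 beyond the 3′ end; up to 4 protein-coding genes lie within 5 kb of those summits, so the choice of neighbour is loose there. Olfactory and vomeronasal receptors, which are not known to be expressed in uterus, had one in 3 of 1459 (0.206%).

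The choice of neighbour has limits in other places too. A second protein-coding gene was within 5 kb of 87 of the 590 peaks (14.7%), a gene of another biotype was nearer than the protein-coding one for 52 (8.81%), and the interval of 84 (14.2%) crossed a span end although the summit did not. At the 5 kb limit itself, peaks just inside were those of Tbc1d21 at 4981 bp (fold 9.69) and Polr1a at 4988 bp (6.12). The first outside were those of Col24a1 at 5002 bp (5.57), Oog1 at 5042 bp (5.96) and Ccdc115 at 5052 bp (6.50), of like strength.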

How the data were processed

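Polyadenylated uterine RNA was profiled in 1 IP and 1 input sample. The submitters' processing notes name HISAT2 2.2.1, MACS3 3.0.0a7 and mm10. Options, control and pooling: not given in the sources used here, and the input has no file here. The authors deposited for each peak a score, a fold enrichment (a ratio) and −log10 p-value and q-value; the deposited −log10 q began at 1.31. Solving fold and Poisson p-value together gave the IP pileup and background of each summit. The pileup was whole within 0.05 of a step for all 590 peaks, and the solver recovered 100% of 2000 simulated pileups. Total depth is unknown. Poisson intervals of folds take the background as known; these and the Wilson intervals, at 95%, cover counting error only and treat peaks as independent.

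Gene spans came from a RefSeq table of 49997 genes (GRCm38.p6, no exons or strand), and direction, sequence and motif matches from its promoter windows, 250 bases before to 50 after each start. The fold of 10 is a round value. Named genes were the 20 highest folds and the 10 highest ratios to the inside peak, both with −log10 q of at least 5, the 10 highest pileups, the 10 genes with most peaks, listed genes with a peak, the peaks nearest the 5 kb limit and peaks in promoter windows; Cox16, Cyp2r1 and Kbtbd3 were added after their values were seen. The members, gene lists and tests were chosen with earlier results of these data known. The alternatives were stricter q, fold or pileup, other distances, other rules on spans and neighbours, and, added after seeing the data, leaving out the chromosome 2 stretch. A few items that this rule names are not reported here. With 1 list there was no test. The scripts ran in Python 3.11.15 with pandas 2.3.3, scipy 1.17.1, numpy 2.4.6 and, for drawing, matplotlib 3.10.9.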

Additional observations from a re-analysis of the deposited data

Results flagged for a closer look

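The peak list also held 55 peaks on the Y chromosome, which the rule on autosomes and X leaves out. This was singled out because no comparison above uses these peaks, whose median depth was above the 3 counts that would be a floor. Uterus is a female tissue, and where the fragments under these peaks came from was not tested. Of the 55, 6 had a summit in any gene span, none in a protein-coding span, and 3 lay within 5 kb of one. Their median fold was 7.55, with 14 fragments over a background of 0.884. A further 12 peaks were on the mitochondrial genome.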

How the results depend on the processing

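Each of 5 results (the number of peaks, the share beyond the 3′ end, the median fold, the share of neighbours with an inside peak and the share with a fold of at least 10) was recomputed under 10 alternatives, and 36 of the 50 values stayed within the counting interval, the spread or 1.5 times the count. With −log10 q of at least 5, the median fold was 7.33, the share of neighbours with an inside peak 64.1% and the share with a fold of at least 10 22.0%. With at least 10 fragments, 320 peaks were left, 59.6% of those with a known direction lay beyond the 3′ end, the median fold was 8.23 and the share with a fold of at least 10 was 30.0%. A limit of 1 kb gave 256 peaks, a 3′ share of 32.8% and a median fold of 6.76, and 2 kb gave 348 peaks and 38.9%. When only protein-coding spans barred a peak there were 893, with a 3′ share of 41.6%. Stricter values and shorter limits select fewer peaks by construction. Fold, q and fragments rest on the same pileup and background, so a filter on q or fragments also bears on the folds by construction. The cause of the other shifts was not tested. Without the chromosome 2 stretch 562 peaks remained, and the 3′ share was 44.9%. No paired analysis was possible because the series has a single peak list. Depth is a limit: 45.8% of the peaks rest on fewer than 10 fragments, and a single list carries no spread between animals.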
